A study of Mus musculus with 20 samples.

Results

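The genes for 3 calpains (Capn1, Capn2 and Capn3), for calpastatin (Cast) and for 3 initiator-type or inflammatory-type caspases (Casp8, Casp9 and Casp12) were followed in mouse hind-limb muscle after 24 h of unloading. All noncontrol probes that carry 1 of these 7 gene names in the array files were taken, which gave 7 of 27962 gene names and 11 of 41174 probes: 4 for Cast, 2 for Capn3 and 1 for each other gene. All 11 passed the filter on dim probes, which kept 37373 probes. The groups were soleus after hind-limb suspension (HLS), soleus of freely ambulating controls, gastrocnemius after HLS and gastrocnemius of controls, with 5 one-colour arrays each. The mice were male ICR, aged 6 months and housed singly. Suspended mice were held by the tail at a tilt of 45 degrees, head down, so that the hind limbs bore no weight, and both muscles came from each of 5 suspended and 5 control mice. HLS mice 1 to 5 and control mice 1 to 5 are different animals. Muscle was taken whole, with the nerves, vessels and resident cells it holds, so fewer cells of a type and less RNA per cell cannot be told apart.

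Calpains are cysteine proteases that are switched on by calcium and cut proteins at a limited number of sites. Capn1 and Capn2 encode the catalytic subunits of the ubiquitous calpains, which pair with a small regulatory subunit and are held in check by calpastatin. Capn3 encodes a muscle-specific calpain that is anchored to titin in the sarcomere, and its loss causes a limb-girdle muscular dystrophy. Caspases are cysteine proteases that cut after aspartate. Caspase 8 starts the cascade below death receptors, caspase 9 is activated on the apoptosome after cytochrome c leaves mitochondria, and mouse caspase 12 sits at the endoplasmic reticulum. Calpains and caspases are both studied in muscle wasting because they can cut myofibrillar proteins before the proteasome degrades them.

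Levels are log2 values relative to the 75th percentile of the same array, and differences are log2 differences ± SE from limma, with p adjusted by the Benjamini-Hochberg method over 37373 probes and called below 0.05. Levels of different probes were not compared. On that scale, 75th percentiles differed in their distance to the E1A spike-in RNA, which went into each labelling in equal volume. Their level was 1.75 ± 0.20 in HLS soleus against 1.50 ± 0.05 in control soleus, and 1.77 ± 0.13 in HLS gastrocnemius against 2.55 ± 0.08 in control gastrocnemius (SD, n = 5 each). Scaling to the spike-ins moved the median difference of all probes to -0.21 in soleus, 0.79 in gastrocnemius and 0.97 between the control muscles, so every direction given here is relative to the bulk of the probes on the array. The labelled muscles mostly fitted their markers: 7 of 7 slow-fibre genes were higher and 6 of 7 fast-fibre genes lower in soleus than in gastrocnemius of controls. The remaining fast-fibre gene, Tnni2, was higher in soleus (0.35, adjusted p = 0.011). The array of soleus HLS mouse 1 stood apart, with a summed slow-fibre level of 9.71 against 10.63 to 11.05 on the other HLS soleus arrays, and a summed fast-fibre level of 11.45 against 9.78 to 10.55. The 20 arrays lay on 6 slides scanned on 3 days. All 5 control gastrocnemius arrays were scanned on day 1 and all 5 control soleus arrays on day 2, so between the control muscles scan day and muscle cannot be told apart within those arrays. Of the HLS gastrocnemius arrays 1 was scanned on day 1 and 4 on day 2, and of the HLS soleus arrays 3 on day 2 and 2 on day 3. A scan day block in gastrocnemius or between the muscles therefore rests on that 1 HLS array. Slide 5 held soleus HLS mice 1 to 3 and soleus control mouse 5, and slide 2 held gastrocnemius HLS mouse 1 and gastrocnemius control mice 3 to 5.

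The comparison of suspended with control soleus asks what a day without load does to these proteases in a postural muscle. The Capn3 and Casp12 messages fell, to 63.2% and 63.8% of control. The other calpains, calpastatin and the initiator caspases did not pass the test. The 2 calls among 11 probes stand beside 5.42% of all probes called, 3.21% with a lower level in HLS.

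The bright Capn3 probe (A_51_P423859), whose accession is the RefSeq Capn3 transcript, read 2.75, 2.31, 2.14, 2.55 and 1.82 in soleus of HLS mice 1 to 5. It read 3.01, 2.89, 3.04, 2.70 and 3.23 in soleus of control mice 1 to 5. The groups overlapped only through HLS mouse 1, which lay just above the lowest control, and HLS mouse 5 was the lowest of all 20 arrays. Capn3 fell by 0.66 ± 0.15 (95% interval -0.98 to -0.34, adjusted p = 0.012), with means of 2.31 ± 0.36 in HLS and 2.97 ± 0.19 in control (SD, n = 5 each). Without HLS mouse 1, the array that stood apart in fibre-type genes, the difference was -0.77 (adjusted p = 0.0036). Every run that left out 1 array kept the call, at -0.77 to -0.54. It was lost when scan day was a block (-0.58, adjusted p = 0.11), when slide was (-0.83, adjusted p = 0.54) and in a fit of the 10 soleus arrays alone (-0.66, adjusted p = 0.072). These 3 fits called 980, 21 and 896 of all probes, against 2025 in the fit of all 20 arrays.

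Casp12 (A_51_P487518) read 0.95, 0.83, 1.00, 1.15 and 0.23 in soleus of HLS mice 1 to 5. It read 1.47, 0.95, 1.46, 1.66 and 1.86 in soleus of control mice 1 to 5. Control mouse 2 lay among the HLS values, and all other controls lay above every HLS array. The message fell by 0.65 ± 0.18 (95% interval -1.02 to -0.28, adjusted p = 0.033), with means of 0.83 ± 0.35 in HLS and 1.48 ± 0.34 in control (SD, n = 5 each). This call was close to the threshold: it was lost without HLS mouse 2 or 5 or without control mouse 1, 3, 4 or 5 (adjusted p = 0.056 to 0.10), while the difference stayed between -0.78 and -0.50. Without HLS mouse 1 it was -0.68 (adjusted p = 0.044). A scan day block gave -0.56 (adjusted p = 0.22), a slide block -0.93 (adjusted p = 0.55), and in the 10 soleus arrays alone the adjusted p was 0.12.

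**Figure D1:**
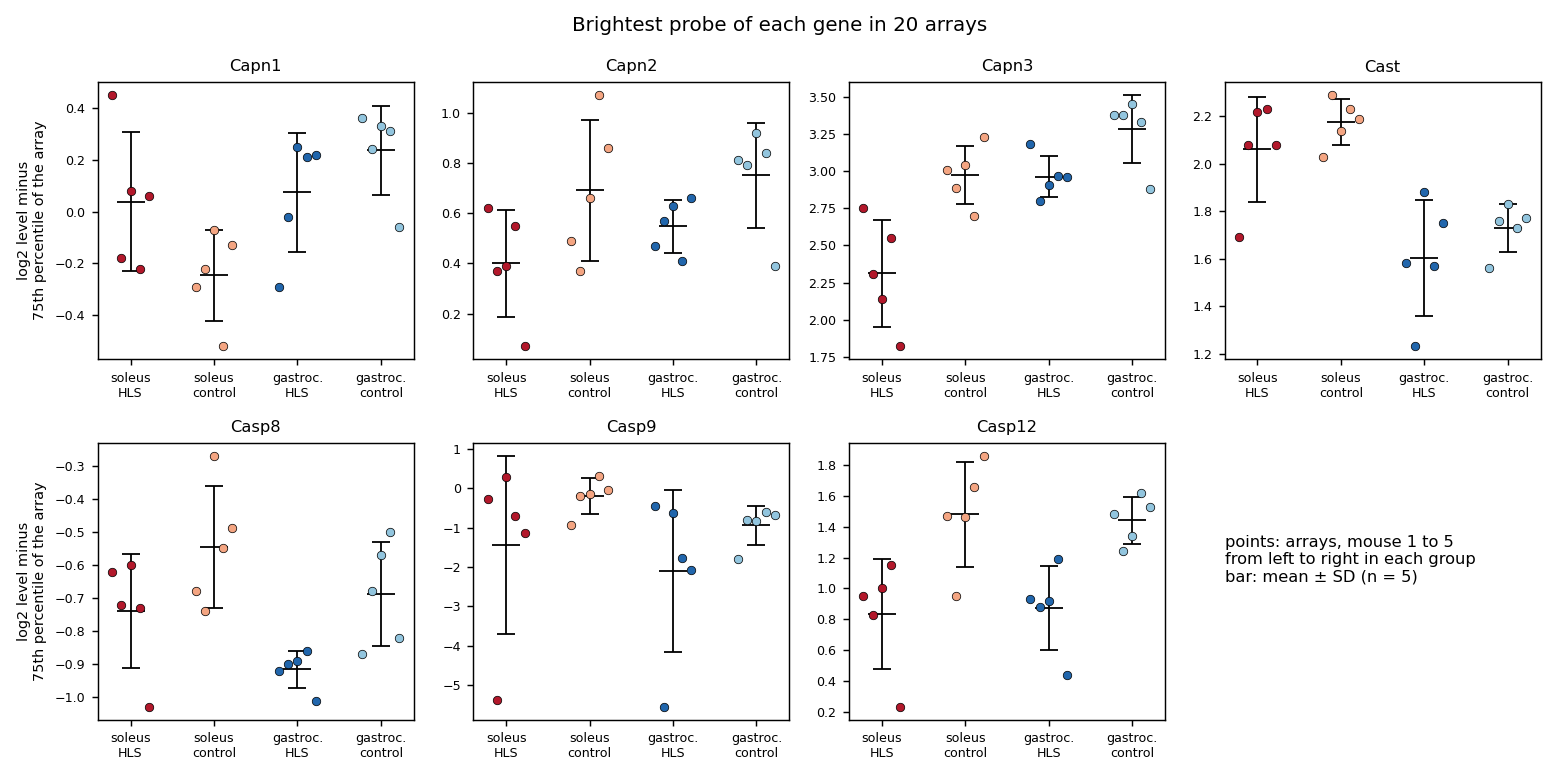
Log2 level of the brightest probe of each of the 7 genes, relative to the array's 75th percentile, on each of the 20 arrays. Points are arrays, in order of mouse 1 to 5 within a group, and bars are the mean ± SD of 5; Capn3 and Casp12 lie lower in HLS soleus than in control soleus, and the Casp9 points near -5.4 and -5.6 are both from HLS mouse 2.

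Some endothelial markers moved beside these falls, and their directions differed. The summed level of 5 endothelial genes ran from 4.54 to 4.67 in HLS soleus and from 4.82 to 5.13 in control soleus, without overlap. In such a sum the largest reading weighs most, here that of Flt1 (mean 3.86 in HLS and 4.47 in control soleus). Of the 5, Flt1, a receptor for vascular endothelial growth factor, fell (-0.61, adjusted p = 0.0077) and the others did not pass, with Kdr at -0.88 (adjusted p = 0.058), Tek at -0.16, Pecam1 at 0.19 and Cdh5 at 0.30. The part of endothelial content in the Capn3 and Casp12 values was not tested. Summed skeletal muscle genes ran from 10.62 to 10.98 in HLS soleus and from 10.58 to 10.88 in control soleus.

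The stretch of 250 bases before each start of Capn3 and Casp12 is shown because these are the members that fell. Sequences are from RefSeq on GRCm38.p6, 5′ to 3′ in the direction of the gene, and Capn3 has 2 starts in that table. Capitals mark matches, on either strand, to an E-box (CANNTG) or to the MEF2 consensus.
Capn3 first start, chr2:120463343-120463592, + strand: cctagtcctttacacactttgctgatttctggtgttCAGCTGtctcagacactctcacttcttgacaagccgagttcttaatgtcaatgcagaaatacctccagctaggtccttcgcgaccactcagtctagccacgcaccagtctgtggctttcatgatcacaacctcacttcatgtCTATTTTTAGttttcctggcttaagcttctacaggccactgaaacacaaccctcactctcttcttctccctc
Capn3 second start, chr2:120476659-120476908, + strand: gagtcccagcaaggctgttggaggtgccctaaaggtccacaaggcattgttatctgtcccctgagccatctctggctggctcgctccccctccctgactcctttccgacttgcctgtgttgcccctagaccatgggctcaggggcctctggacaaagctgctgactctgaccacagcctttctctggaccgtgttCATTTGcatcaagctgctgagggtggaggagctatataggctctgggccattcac
Casp12, chr9:5345226-5345475, + strand: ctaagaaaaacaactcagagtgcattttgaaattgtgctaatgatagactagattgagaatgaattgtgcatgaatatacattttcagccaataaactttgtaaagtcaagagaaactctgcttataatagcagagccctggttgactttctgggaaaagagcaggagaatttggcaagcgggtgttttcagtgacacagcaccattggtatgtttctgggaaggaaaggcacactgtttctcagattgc
The first Capn3 window held 1 E-box 214 bases before the start and 1 MEF2 consensus match 72 bases before it. The second Capn3 window held 1 E-box, 55 bases before the start, and no MEF2 match. The Casp12 window held neither. None of the 3 windows held a forkhead site (GTAAACA), a glucocorticoid receptor motif (AGAACA) or an ER stress response element (CCAAT, any 9 bases, CCACG), searched on both strands. Among 32851 windows of the same length, 66.2% held an E-box, 2.92% a MEF2 consensus match, 3.17% the forkhead site, 16.1% the glucocorticoid receptor motif and 0.113% the ER stress element. These matches are letters in a window and say nothing of binding. Which Capn3 start the muscles use was not measured.

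The ubiquitous calpains did not pass in soleus. Capn1 (A_51_P472518) read 0.45, -0.18, 0.08, -0.22 and 0.06 in HLS mice 1 to 5, against -0.29, -0.22, -0.07, -0.52 and -0.13 in control mice 1 to 5. HLS mouse 1 was the highest soleus array, and the groups overlapped. The difference of 0.28 ± 0.14 had an adjusted p of 0.30. Capn2 (A_51_P448109) ranged from 0.07 to 0.62 (median 0.39) in HLS soleus and from 0.37 to 1.07 (median 0.66) in control soleus, a difference of -0.29 ± 0.14 (95% interval -0.57 to -0.01, adjusted p = 0.27).

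Calpastatin, the inhibitor of both, differed by little in soleus on any of its 4 probes. Probe 1 (A_51_P519295, the brightest) gave -0.12 ± 0.12, probe 2 (A_52_P638903) -0.08 ± 0.11, probe 3 (A_52_P279658) -0.10 ± 0.11 and probe 4 (A_52_P548913) 0.07 ± 0.14. Their adjusted p ranged from 0.69 to 0.86. The widest interval, that of probe 4, ran from -0.22 to 0.35. On probe 1 the lowest soleus array was HLS mouse 1 at 1.69, against 2.08 to 2.23 in the other HLS mice and 2.03 to 2.29 in controls.

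Among the initiator caspases, Casp8 (A_51_P247799) ranged from -1.03 to -0.60 in HLS soleus and from -0.74 to -0.27 in control soleus. The groups overlapped, and the difference was -0.19 ± 0.11 (95% interval -0.42 to 0.03, adjusted p = 0.38). Casp9 (A_52_P663602) read -0.26, -5.38, 0.30, -0.69 and -1.14 in soleus of HLS mice 1 to 5 and -0.94, -0.20, -0.13, 0.32 and -0.05 in soleus of control mice 1 to 5. HLS mouse 2 was not well above background and the other 4 HLS mice lay among or near the controls. The difference over all arrays was -1.23 ± 0.89 (95% interval -3.08 to 0.61, adjusted p = 0.53), and it was -0.25 (adjusted p = 0.78) with both arrays of HLS mouse 2 left out.

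The second Capn3 probe (A_52_P300971) behaved unlike the first. The files describe it as a cDNA clone inferred to belong to the zinc finger gene Zfp106, which is next to Capn3 on chromosome 2 in the RefSeq table. It read -4.06 to -3.03 over the 20 arrays and was well above background on 4 soleus arrays of each condition and 3 gastrocnemius arrays of each condition. Its soleus difference was 0.15 ± 0.19 (adjusted p = 0.75), and its values are not used as a measure of Capn3.

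In gastrocnemius, a mixed muscle rich in fast fibres, the same comparison called none of the 11 probes, beside 2.83% of all probes. At an unadjusted p below 0.05 stood 3 of the 11 (Capn3, Casp8 and Casp12), beside 14.3% of all probes. Casp12 came nearest to the threshold.

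Casp12 read 0.93, 0.88, 0.92, 1.19 and 0.44 in gastrocnemius of HLS mice 1 to 5. It read 1.48, 1.24, 1.34, 1.62 and 1.53 in gastrocnemius of control mice 1 to 5. Every HLS array lay below every control array, as was so in either direction for 7.06% of all probes. The difference was -0.57 ± 0.18 (95% interval -0.94 to -0.21, 67.2% of control, unadjusted p = 0.0038, adjusted p = 0.089). Its adjusted p was 0.048 after normexp background correction and 0.039 in a fit of the 10 gastrocnemius arrays alone. The only HLS gastrocnemius array on slide 2 and on scan day 1, that of mouse 1, differed by -0.57 from the 3 controls of that slide and by -0.51 from the 5 controls of that day, with no test. Scaled to the spike-ins the Casp12 difference turned to 0.20 (adjusted p = 0.31). The summed endothelial level ran from 4.04 to 4.36 in HLS gastrocnemius and from 4.32 to 4.66 in control gastrocnemius, and of the 5 genes Kdr fell (-1.12, adjusted p = 0.025). The others did not pass, with Flt1 at -0.36 (adjusted p = 0.18), Tek at -0.04, Pecam1 at 0.17 and Cdh5 at 0.22. The part of endothelial content in the Casp12 values was not tested.

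Capn3 read 3.18, 2.80, 2.91, 2.97 and 2.96 in gastrocnemius of HLS mice 1 to 5, against 3.38, 3.38, 3.45, 3.33 and 2.88 in control mice 1 to 5. Control mouse 5 lay among the HLS values, and the 4 other controls lay above all HLS arrays. The difference of -0.32 ± 0.15 did not pass (adjusted p = 0.34) and turned to 0.46 scaled to the spike-ins. The single HLS array on slide 2 and scan day 1 differed by -0.04 from the controls of that slide and by -0.11 from those of that day. Casp8 was at -0.92, -0.90, -0.89, -0.86 and -1.01 in HLS mice 1 to 5 and at -0.87, -0.68, -0.57, -0.50 and -0.82 in control mice 1 to 5. Only control mouse 1 reached into the HLS range, and the difference was -0.23 ± 0.11 (adjusted p = 0.34; 0.55 scaled to the spike-ins).

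The remaining members did not pass in gastrocnemius either. Capn1 differed by -0.16 ± 0.14 (adjusted p = 0.69) and Capn2 by -0.20 ± 0.14 (adjusted p = 0.56). The Cast probes 1 to 4 differed by -0.12, 0.08, -0.11 and 0.17, with adjusted p of 0.65 to 0.84. Casp9 read -0.44, -5.57, -0.62, -1.78 and -2.08 in HLS mice 1 to 5 and -1.80, -0.80, -0.84, -0.60 and -0.67 in control mice 1 to 5. Again HLS mouse 2 was not well above background, and the difference was -1.16 ± 0.89 (adjusted p = 0.63), or -0.29 (adjusted p = 0.84) without that mouse.

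**Figure D2:**
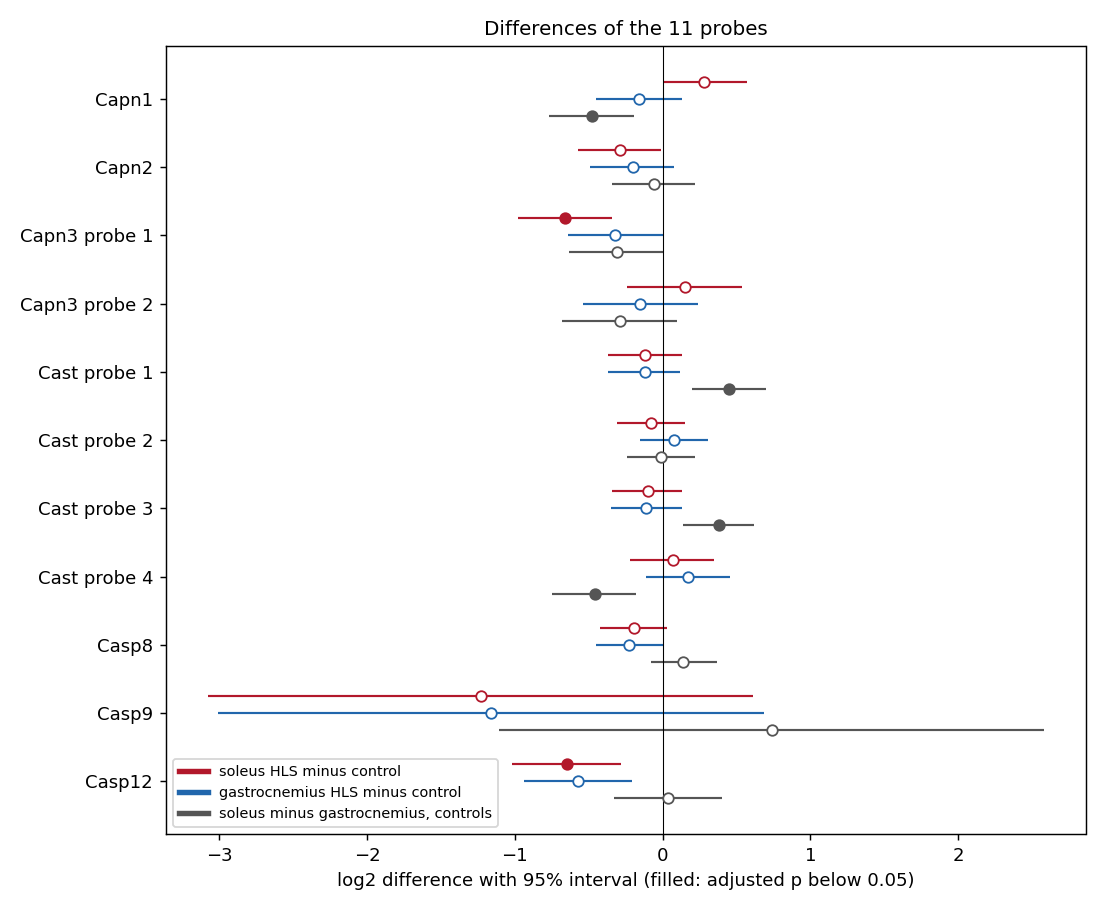
Log2 differences of the 11 probes with 95% intervals: HLS minus control in soleus, HLS minus control in gastrocnemius, and soleus minus gastrocnemius in controls. Filled points have an adjusted p below 0.05; in soleus these are Capn3 probe 1 (-0.66) and Casp12 (-0.65), in gastrocnemius there is none, and between the control muscles they are Capn1 and Cast probes 1, 3 and 4.

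Whether unloading acted differently in the muscles was tested by the interaction, the HLS difference in soleus minus that in gastrocnemius. It called 0 of 11 probes and 0.0321% of all probes, by limma. The interaction was -0.34 ± 0.22 for Capn3 (95% interval -0.79 to 0.11, adjusted p = 0.89) and -0.08 ± 0.25 for Casp12 (95% interval -0.59 to 0.44, adjusted p = 0.99). A difference between the muscles in the response of either gene was therefore not shown, although each passed in soleus alone. Capn1 had the lowest unadjusted p, with 0.44 ± 0.19 (unadjusted p = 0.034 and adjusted p = 0.78 by limma), and was the only one of 11 below 0.05, beside 6.04% of all probes. Its sign turned to -0.60 with spike-in scaling.

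Because both muscles came from the same mice, the mean of both muscles was also compared, 5 suspended against 5 control mice. Capn3 and Casp12 fell and the other 9 probes did not pass, beside 7.17% of all probes called and 4.29% called with a lower level in HLS. Capn3 mouse means were 2.96, 2.55, 2.52, 2.76 and 2.39 in HLS mice 1 to 5 and 3.19, 3.14, 3.25, 3.02 and 3.05 in control mice 1 to 5. All suspended mice lay below all control mice, as was so in either direction for 8.9% of all probes. The difference was -0.49 ± 0.11 (adjusted p = 0.016), and -0.23 scaled to the spike-ins. For Casp12 it was -0.61 ± 0.15 (adjusted p = 0.031), and the call was lost without HLS mouse 2 or control mouse 1, 3, 4 or 5 (adjusted p = 0.057 to 0.081). The Casp12 means overlapped, with HLS mouse 4 at 1.17 above control mouse 2 at 1.10. Capn2 means, like those of Capn3, did not overlap, at 0.37 to 0.55 in HLS and 0.58 to 0.95 in control mice. The Capn2 difference of -0.25 ± 0.08 did not pass (adjusted p = 0.11) and was 0.01 scaled to the spike-ins.

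Casp9 and Casp12 went with the mouse. Over the 10 mice, the deviation from the group mean in soleus and that in gastrocnemius had a Pearson r of 0.98 and a Spearman rho of 0.89 for Casp9, and 0.90 and 0.94 for Casp12. With the 2 mice farthest from the median left out, r was 0.96 for Casp9 and 0.85 for Casp12. The 2 left out for Casp9 include HLS mouse 2, whose level was not measured. Deviations were not centred anew after mice were left out, so those of Casp9 still rest on HLS means that include that mouse. Of all probes, 0.148% had an r at least as high as Casp12. The other 9 probes lay between -0.56 and 0.47, and Capn3 at 0.00. Both arrays of a mouse share its RNA handling as well as its body, and the median r over all probes was -0.011.

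For Casp12, HLS mouse 5 was the lowest suspended mouse in both muscles (0.23 in soleus and 0.44 in gastrocnemius) and HLS mouse 4 the highest (1.15 and 1.19). Among controls, mouse 2 was the lowest in both muscles, at 0.95 and 1.24. For Casp9, both arrays of HLS mouse 2 were not well above background, so the level was not measured there. The lowest signal of any probe well above background was -4.12 on the soleus array and -3.52 on the gastrocnemius array of that mouse. On the arrays of the other mice, the lowest Casp9 value was -2.08. Of 953 kept probes that were not well above background on exactly 2 arrays, 15 had both arrays from the same mouse, and 1 of these, Casp9, was of HLS mouse 2. Sequence differences under the Casp9 probe in these outbred mice were not tested.

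**Figure D3:**
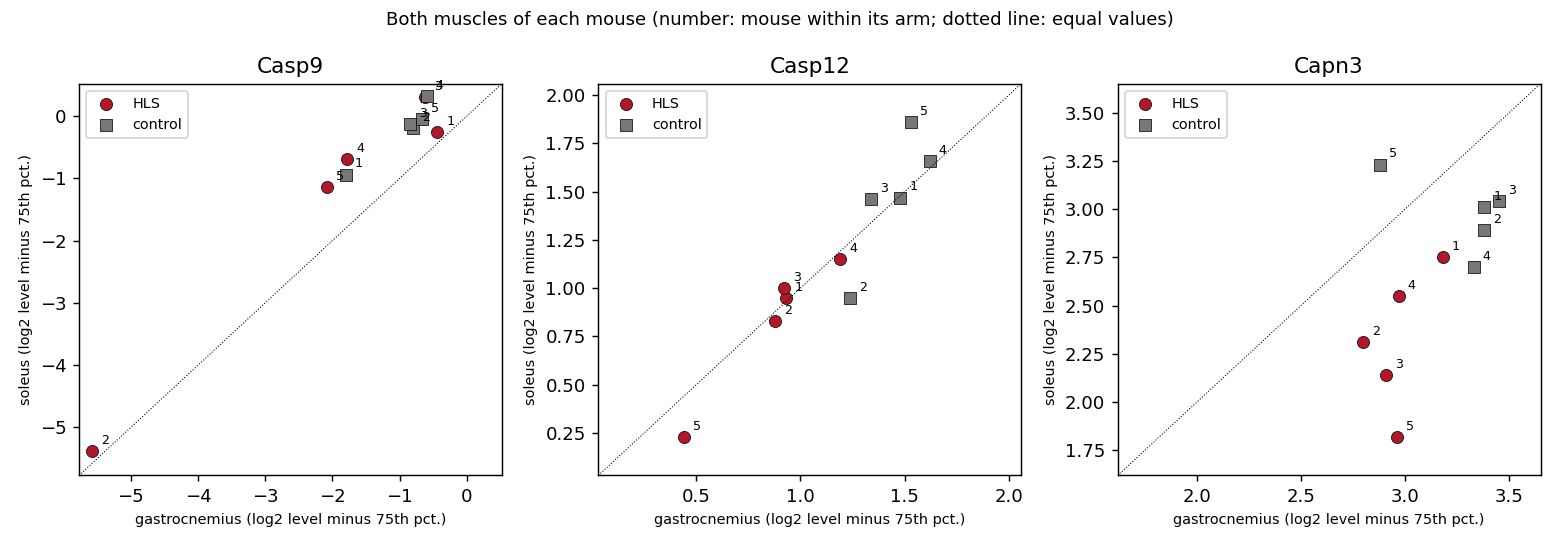
Level in soleus against level in gastrocnemius of the same mouse for Casp9, Casp12 and Capn3, in log2 relative to the array's 75th percentile. Numbers are mice within HLS or control and the dotted line marks equal values; Casp9 and Casp12 follow a line across mice (r of deviations 0.98 and 0.90), Capn3 does not (0.00), and Casp9 of HLS mouse 2 was not well above background in either muscle.

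The comparison of soleus with gastrocnemius in controls asks how these genes differ between a slow and a fast muscle under normal load. Of the 11 probes 4 were called, 2 higher and 2 lower in soleus, beside 33.1% of all probes (11.1% higher and 22% lower), so the share is near that of the array. Capn1 was lower in soleus, at -0.29, -0.22, -0.07, -0.52 and -0.13 in mice 1 to 5, against 0.36, 0.24, 0.33, 0.31 and -0.06 in their gastrocnemius. The muscles did not overlap, as for 21.4% of all probes, though soleus of mouse 3 came very close to gastrocnemius of mouse 5. The difference was -0.48 ± 0.14 (adjusted p = 0.012, and 0.04 with the mouse as a block). It was -0.31 with median scaling (adjusted p = 0.092) and turned to 0.57 scaled to the spike-ins.

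The Cast probes disagreed on direction between the muscles. Probe 1 averaged 2.18 ± 0.10 in soleus and 1.73 ± 0.10 in gastrocnemius (SD, n = 5), and probe 3 averaged 0.00 ± 0.08 in soleus and -0.38 ± 0.17 in gastrocnemius. Probe 4 averaged -1.12 ± 0.19 in soleus and -0.65 ± 0.17 in gastrocnemius. Probes 1 and 3 were thus higher in soleus by 0.45 ± 0.12 (adjusted p = 0.0071) and 0.38 ± 0.11 (adjusted p = 0.016), without overlap, whereas probe 4 was lower by -0.46 ± 0.14 (adjusted p = 0.013) with overlap. Probe 2, which stands for a cDNA clone, was at -0.01 ± 0.11 (adjusted p = 0.94). Probes 1, 3 and 4 carry the same transcript accession in the files.

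Probes 1 and 3 were higher in soleus in 10 of 10 mice, suspended ones included, and probe 4 in 1 of 10. The opposite signs held with normexp, quantile and median scaling, while with spike-in scaling the probes 1, 3 and 4 read 1.50, 1.43 and 0.59. Probe 1 lost its call with quantile normalization (0.30, adjusted p = 0.059) and probe 4 with median scaling (-0.30, adjusted p = 0.066). Under a scan day block none of the 4 passed, and Capn1 was the only called probe of the 11 (-0.93, adjusted p = 0.044). Calpastatin is made in several transcript forms, and which form each probe reads was not tested.

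**Figure D4:**
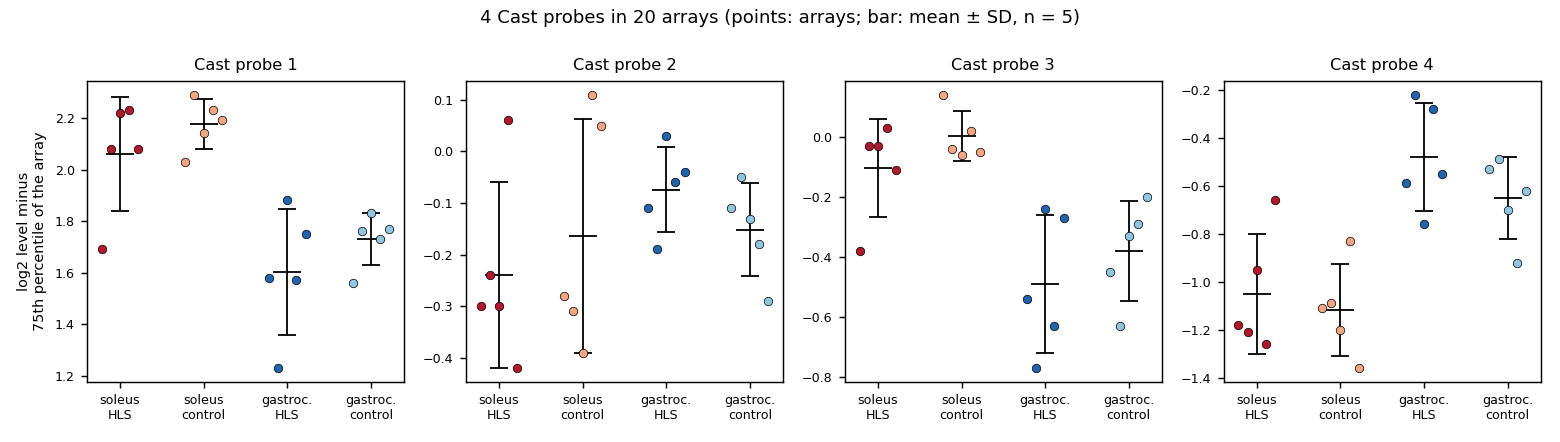
Log2 level of the 4 Cast probes on each of the 20 arrays, relative to the array's 75th percentile, with the mean ± SD of 5. Probes 1 and 3 lie higher in soleus than in gastrocnemius, probe 4 lies lower (higher if scaled to the spike-ins), and probe 2 differs by -0.01 in controls; HLS and control overlap for each probe within each muscle.

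Casp9 was higher in soleus than in gastrocnemius in 9 of the 9 mice in which both arrays were well above background, which leaves out HLS mouse 2. The soleus minus gastrocnemius difference was 0.18 to 1.09 in the 4 suspended mice and 0.60 to 0.92 in control mice. In controls the mean difference of 0.74 did not pass without regard to the mouse (± 0.89, adjusted p = 0.55) and passed with the mouse as a block (adjusted p = 0.0031). That SE is pooled over all 4 groups, including both arrays of HLS mouse 2. The SD of Casp9 was 2.27 in HLS soleus and 2.07 in HLS gastrocnemius, against 0.46 and 0.49 in the control muscles. Capn3 was lower in soleus by -0.31 ± 0.15 (adjusted p = 0.12), passed with quantile normalization (-0.47, adjusted p = 0.01) or without gastrocnemius control mouse 5 (-0.41, adjusted p = 0.045), and turned to 0.74 scaled to the spike-ins. Capn2 (-0.06), Casp8 (0.14) and Casp12 (0.04) did not pass, with 95% intervals of -0.34 to 0.22, -0.08 to 0.37 and -0.33 to 0.40.

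The order of the 4 groups differed by gene. Capn3 averaged highest in control gastrocnemius, then control soleus, HLS gastrocnemius and HLS soleus, and the only neighbours in that order that did not overlap were HLS gastrocnemius (2.80 to 3.18) and HLS soleus (1.82 to 2.75). Casp12 averaged higher in both control groups than in both HLS groups, with a gap between control gastrocnemius and HLS gastrocnemius and overlap between the muscles of each condition. The lowest control soleus array, at 0.95, lay within the range of both HLS groups. Capn2 averaged highest in control gastrocnemius, followed by control soleus, HLS gastrocnemius and HLS soleus, and all neighbours overlapped. Casp8 and Casp9 averaged highest in control soleus and lowest in HLS gastrocnemius, again with overlap of all neighbours. Capn1 averaged highest in control gastrocnemius and lowest in control soleus. Cast probe 1 was highest in control soleus and lowest in HLS gastrocnemius, with overlap of neighbours.

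Across the 20 arrays, some members followed each other. As a description over arrays that share group and muscle, Pearson r was 0.69 between Casp8 and Casp12, 0.68 between Capn2 and Capn3, 0.65 between Capn2 and Casp12 and 0.59 between Capn3 and Casp12. It was -0.50 between Capn1 and the brightest Cast probe. Each gene was represented by its brightest probe. For Cast that probe was higher in soleus in controls while another was lower, and r with the other Cast probes was not computed. The genes whose pattern was most like a member's were D930001I22Rik (0.95), Tmem126a (0.94) and Zdhhc21 (0.93) for Capn3 and Trappc6b (0.90), D930005D10Rik (0.90) and Ccnd2, the cyclin D2 gene (0.88), for Casp12. They were Prpf8, Mrpl38 and Mon1a (0.84 to 0.85) for Capn1, and Arpc1a, the integrin gene Itgb1 and Tlk1 (0.90 to 0.92) for Capn2. For the brightest Cast probe they were Lemd2, Efha1 and 1500001L15Rik (0.92 to 0.93), and for Casp8 Cspg4, Kif5b and Lpp (0.87 to 0.92). For Casp9 they were 9130401M01Rik (0.94), Erdr1 (0.87) and Tpd52l2 (0.81). The r for Casp9 include both arrays of HLS mouse 2 (-5.38 and -5.57), which were not well above background, and were not computed without them.

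The rest of the pathway was read from 7 gene lists, with the brightest probe of each gene. Of 11 other calpain genes measured, none passed with HLS in either muscle by limma, and 2 in soleus and 0 in gastrocnemius had an unadjusted p below 0.05. The lowest p in soleus were those of Capn9 (0.45, adjusted p = 0.14) and Capn6 (0.26, adjusted p = 0.26). Capns1, the small subunit that pairs with calpains 1 and 2, differed by 0.15 in soleus (adjusted p = 0.69) and by -0.03 in gastrocnemius (adjusted p = 0.97). Between the control muscles Capn6 was higher in soleus (0.41), and Capn12 (-1.43), Capn9 (-0.82), Capns2 (-0.73), Capn11 (-0.56) and Capn5 (-0.32) were lower, whereas scaled to the spike-ins 8 of the list were called higher and 1 lower.

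None of the 8 other caspase genes with Cflar, the caspase 8 inhibitor FLIP, passed with HLS, and 2 in soleus and 1 in gastrocnemius had an unadjusted p below 0.05. In soleus Casp1, an inflammatory caspase, had -0.48 (adjusted p = 0.15) and Casp4 -0.34 (adjusted p = 0.16), and in gastrocnemius Cflar had -0.52 (adjusted p = 0.055) and Casp2 -0.18 (adjusted p = 0.60). None of the 10 apoptosome and inhibitor of apoptosis genes passed, and 0 in soleus and 2 in gastrocnemius were below 0.05 without adjustment. The lowest p were those of Xiap (0.14) and Birc5 (-0.32) in soleus, both with an adjusted p of 0.43, and of Aifm1 (-0.28, adjusted p = 0.16) and Birc5 (-0.49, adjusted p = 0.23) in gastrocnemius. Apaf1, the scaffold on which caspase 9 assembles, differed by -0.10 in soleus and 0.11 in gastrocnemius (adjusted p = 0.66 and 0.71). None of the 8 death receptor and adaptor genes passed, and 2 in soleus and 1 in gastrocnemius were below 0.05 without adjustment, with the death receptor gene Fas at 0.46 in soleus (adjusted p = 0.27) and 0.59 in gastrocnemius (adjusted p = 0.17). Cradd, an adaptor with a death domain, had 0.43 in soleus (adjusted p = 0.13), and the kinase gene Ripk1 had 0.29 in gastrocnemius (adjusted p = 0.40).

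Of the 16 BCL2 family genes, which control the release of cytochrome c, 2 rose and 1 fell in HLS soleus, beside 5.42% of all probes called. Bmf, a death-promoting member with only the BH3 motif, read 0.69 to 1.66 in HLS soleus and -0.36 to 0.36 in control soleus, and rose by 1.31 ± 0.24 (adjusted p = 0.0021). It also rose in gastrocnemius, where it read -0.33 to 0.46 in HLS and -1.41 to -0.22 in control (1.06 ± 0.24, adjusted p = 0.02), and it was the only called gene of the list there, beside 2.83% of all probes. Its other 2 probes did not follow, with 0.04 and 0.15 in soleus and 0.16 and 0.05 in gastrocnemius. Bnip3l, a mitophagy receptor, rose by 0.45 ± 0.12 in soleus (adjusted p = 0.036), and the survival gene Bcl2l2 fell by 0.37 ± 0.10 (adjusted p = 0.038). The other probe of each did not follow in soleus, with 0.03 for Bnip3l (adjusted p = 0.95) and -0.06 for Bcl2l2 (adjusted p = 0.88). Without soleus HLS mouse 1, 3 of the list rose and none fell, with Bcl2l2 at -0.32 (adjusted p = 0.092). Scaled to the spike-ins, Bnip3l was at 0.19 (adjusted p = 0.44).

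Of the 4 genes for proteins cut by executioner caspases or released by that cut, 2 fell in HLS soleus, again beside 5.42% of all probes called. Dffa, the inhibitor of the caspase-activated DNase, read 0.11, -0.02, -0.57, -0.42 and -0.76 in HLS mice 1 to 5 and 0.56, 0.51, 0.95, 0.71 and 1.12 in control mice 1 to 5. The groups did not overlap, as for 4.86% of all probes, and the message fell by 1.10 ± 0.19 (adjusted p = 0.0011). A second Dffa probe gave -1.16 (adjusted p = 0.018) and another -0.25 (adjusted p = 0.32). Lmna, the lamin A/C gene, fell by 0.51 ± 0.13 (adjusted p = 0.024), and without soleus HLS mouse 1 it was at -0.41 (adjusted p = 0.066). A second Lmna probe gave -0.57 (adjusted p = 0.0098) and another -0.20 (adjusted p = 0.56). Dffb, the DNase itself, differed by -0.04 (adjusted p = 0.93) and Parp1 by 0.00 (adjusted p = 1). None of the 4 passed in gastrocnemius (3 had an unadjusted p below 0.05), where Lmna was at -0.42 (adjusted p = 0.088) and Dffa at -0.50 (adjusted p = 0.2).

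Of 5 partners and substrates of calpain 3, Flnc, the muscle filamin gene, fell in both muscles, beside 5.42% of all probes called in soleus and 2.83% in gastrocnemius. It read 4.37 to 4.77 in HLS soleus and 5.19 to 5.71 in control soleus (-0.94 ± 0.13, adjusted p = 0.00016). In gastrocnemius it read 3.68 to 4.10 in HLS and 4.88 to 5.54 in control (-1.34 ± 0.13, adjusted p = 1.6e-05), and it kept its sign there scaled to the spike-ins (-0.56). One other Flnc probe followed in gastrocnemius (-1.29, adjusted p = 0.0031) and stood at -0.72 in soleus (adjusted p = 0.074), while the remaining probes gave -0.24 and 0.06 in soleus and -0.45 and 0.03 in gastrocnemius. Ttn, the gene of the calpain 3 anchor titin, differed by 0.03 in soleus (adjusted p = 0.96) and 0.15 in gastrocnemius (adjusted p = 0.74). Dysf, Ahnak and Aldoa did not pass in either muscle.

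Under a scan day block, Bmf (1.11, adjusted p = 0.039), Dffa (-0.93, adjusted p = 0.024) and Flnc (-0.92, adjusted p = 0.0032) were the called genes of these lists in soleus, and Flnc the called gene in gastrocnemius (-1.27, adjusted p = 0.045). A slide block called none in either muscle. Scaled to the spike-ins, the BCL2 family had 1 gene called higher and 4 called lower in HLS soleus, and all 16 called higher in HLS gastrocnemius.

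**Figure D5:**
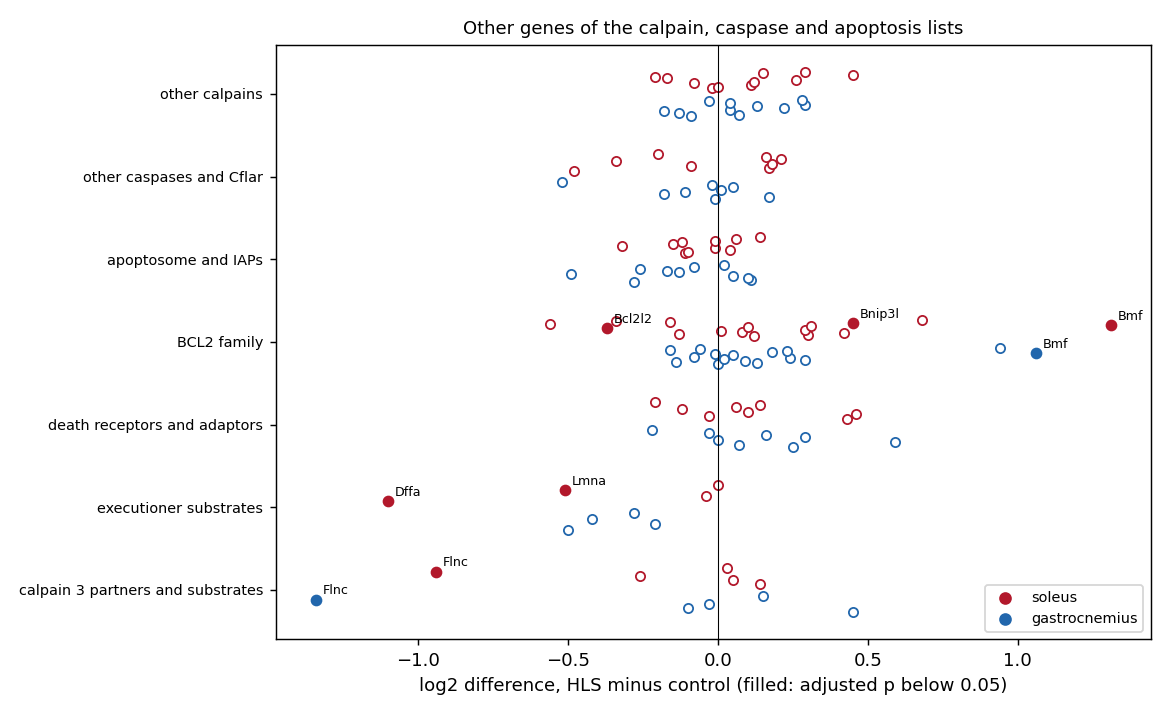
Log2 difference, HLS minus control, of each gene of 7 lists around the calpains and caspases, 1 probe per gene, in soleus and gastrocnemius. Filled and named points have an adjusted p below 0.05: Bmf, Bnip3l, Bcl2l2, Dffa, Lmna and Flnc in soleus and Bmf and Flnc in gastrocnemius; no other calpain, caspase, apoptosome or death receptor gene is filled, and the open BCL2 family point near 0.94 in gastrocnemius is Pmaip1, which was not well above background in control gastrocnemius.

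The remaining lists were also compared between the control muscles, where no gene of them was called lower in soleus once scaled to the spike-ins. These counts stand beside 33.1% of all probes called. Markers of other cell types differed in the same comparison: 5 of 5 adipocyte genes were higher in soleus (median 2.42, summed level 7.48 to 8.69 in soleus and 6.42 to 6.66 in gastrocnemius) and 3 of 5 endothelial genes were higher (summed level 4.82 to 5.13 in soleus and 4.32 to 4.66 in gastrocnemius). Their part in the differences between the control muscles, members included, was not tested. Of the other caspases and Cflar, Casp4 (0.73) and Casp2 (0.37) were higher in soleus. Of the apoptosome and inhibitor genes, Endog (-0.45), Birc3 (-0.33) and Xiap (-0.28) were lower in soleus. Of the BCL2 family 5 were higher and 2 lower, with Bnip3 (0.93) and Bmf (0.89) at the high end and Bik (-0.63) at the low end. One of the 5, Pmaip1, was not well above background on any control gastrocnemius array, and its level was at least 1.12-fold higher in control soleus (measured means -3.38 in soleus and -4.86 in gastrocnemius, adjusted p = 0.00043), against the lowest signal that was well above background. Of the death receptor list Tradd (0.72) and Tnfrsf1a, a receptor for tumour necrosis factor (0.70), were higher and Fadd (-0.38) lower. Lmna (0.64) was higher and Parp1 (-0.35) lower, and Ahnak (0.63) was higher.

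Over all 11 probes, the median HLS difference was -0.12 in soleus and -0.16 in gastrocnemius, beside 0.05 and 0.01 over all probes. Lower in HLS were 8 of the 11 in soleus and 9 of the 11 in gastrocnemius, beside 39.9% and 47.1% of all probes. Scaled to the spike-ins, 9 of the 11 were called higher in HLS gastrocnemius and none lower, and 4 were called lower in HLS soleus. The 4 Cast probes share a gene and are not separate evidence. The 11 also include the second Capn3 probe (0.15 in soleus and -0.15 in gastrocnemius), which is not used as a measure of Capn3.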

How the data were processed

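Total RNA of soleus and gastrocnemius from 10 mice was hybridised to 20 one-colour arrays, 5 in each of 4 groups, per the labels; each labelling took 600 ng plus spike-ins. The deposited values are linear spot intensity that the authors extracted with Agilent Feature Extraction, version 9.1.3.1 by the file headers, not scaled between arrays. No genome build was needed for the array values. The series' value table equalled the processed intensity within 0.497% and served as an alternative. The 75th percentile of intensity ranged from 385.1 to 735 between arrays, and 80.49% to 92.98% of probes were well above background; the number of arrays limits the precision.

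From these values, intensities were divided by the array's 75th percentile, taken over 43379 noncontrol spots, and turned to log2, and spots of a probe were averaged without uneven ones (at most 43 an array). Probes well above background on at least 4 of 5 arrays of a group were kept. A means model of the 4 groups was fitted with limma 3.58.1 (lmFit, eBayes; two-sided) in R 4.3.3, and tested on simulated data. Figures used matplotlib 3.10.9. Per the labels, both muscles of a number within a condition are from the same mouse, so the mouse was a block for soleus against gastrocnemius; over probes, the deviations of both muscles of a mouse correlated at -0.34 to 0.165 (median 0.0293, 10 mice). HLS and control mice of a number are different animals.

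The members, lists and tests were chosen with earlier results of these data known. All member probes are named. Of each list, up to 4 called genes with the largest change are named, or up to 2 with the lowest p, and any others named (Capns1, Capn5, Apaf1, Dffb, Parp1, Ttn, Dysf, Aldoa) were chosen after their values were seen. The alias Cad was dropped for Dffb because the files use it for another gene. Alternatives were normexp background correction, quantile and median scaling, the series table, other filters, 1 probe per gene name, slide, scan day and mouse as blocks, each muscle alone and each array left out. Spike-in scaling, the mouse-mean comparison, HLS mouse 2 left out and list genes under other settings were added after seeing the data. One list gene is not reported here by name. Of 11 probe accessions 9 are RefSeq transcripts of their gene.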

Additional observations from a re-analysis of the deposited data

Results flagged for a closer look

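In 5 of 28 sets of 5 arrays (7 genes, brightest probe, in 4 groups), 1 array lay apart from the rest of its group by Dixon's test at the 95% level, where chance gives about 1 in 20. The 28 sets share the same 20 arrays and are not independent, so an excess over chance was not tested. The Casp9 level of soleus HLS mouse 2 was -5.38, against -1.14 to 0.30 in the other HLS mice, and that of gastrocnemius control mouse 1 was -1.80, against -0.84 to -0.60 in the other controls. Gastrocnemius control mouse 5 was low for both Capn2 (0.39, others 0.79 to 0.92) and Capn3 (2.88, others 3.33 to 3.45). The Cast level of soleus HLS mouse 1 was 1.69, against 2.08 to 2.23 in the other HLS mice.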

How the results depend on the processing

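With spike-in scaling, 4 member probes were called in soleus, 9 in gastrocnemius (main: 0), 10 in the interaction and 11 between control muscles. Signs reversed there in gastrocnemius for Capn1 (0.62), Capn2 (0.58), Capn3 (0.46), Cast (0.65), Casp8 (0.55) and Casp12 (0.20), in the interaction for Capn1 (-0.60), Cast (-1.03) and Casp8 (-1.0), between control muscles for Capn1 (0.57), Capn2 (0.99) and Capn3 (0.74), and in mouse means for Capn2 (0.01), Cast (0.14) and Casp8 (0.05). The 2 soleus calls became 0 when slide or scan day was a block and in the 10 soleus arrays alone. The gastrocnemius count of 0 became 1 with normexp and in the 10 gastrocnemius arrays alone, through Casp12. The 4 calls between control muscles became 2 with median scaling and 1 with scan day as a block. Other reversals were of small or imprecise values. With scan day as a block these were Capn2 (0.05) and Cast (-0.03) in the interaction and Casp9 in gastrocnemius (0.50; 0.26 with slide, which gave 0.00 for the Cast interaction). With normexp the interactions of Casp9 (0.03) and Cast (-0.04) turned, with median scaling that of Cast (-0.01) and the muscle difference of Capn2 (0.10), and with quantile normalization the muscle difference of Casp12 (-0.10). The Casp9 interaction was 0.05 without HLS mouse 2. The causes were not tested.

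Leaving out 1 array gave 1 to 2 called probes in soleus, 0 in gastrocnemius and the interaction, and 3 to 5 between control muscles. In mouse means, leaving out 1 mouse with both its arrays gave 1 to 2. With 1 array left out, the interactions of Capn2 (-0.17 to 0.01), Cast (-0.08 to 0.10), Casp8 (-0.02 to 0.11), Casp9 (-0.94 to 0.91) and Casp12 (-0.21 to 0.07) spanned 0. So did the muscle differences of Capn2 (-0.16 to 0.02) and Casp12 (-0.06 to 0.17). Over all probes, called counts ran from 21 to 4616 in soleus (main 2025), 18 to 34776 in gastrocnemius (main 1057), 0 to 34305 in the interaction (main 12), 2018 to 33088 between muscles (main 12370) and 2638 to 18250 in mouse means (main 2678).

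With the animal number as a replicate block, 2 member probes were called in soleus and 0 in gastrocnemius (1949 and 1052 of all probes); HLS and control mice share only a number. With the mouse as a block 5 were called between muscles, Casp9 being added, and 0 in the interaction (2 of all probes); it changed no other call of a member. Slide as a fixed block could not be fitted for soleus against gastrocnemius in controls, since no slide held both.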
